A study of Mus musculus with 27 samples.

Results

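The sarcomere genes of striated muscle followed here were 7 in number: the myosin heavy chain genes Myh3 and Myh7, the myosin light chain gene Myl7, the troponin genes Tnnt1, Tnnt2 and Tnnc1, and the actin gene Actc1. Every probe set whose annotation names one of them was taken, which gave 10 probe sets of the 12422 tested, or 7 genes of the 8251 that had at least 1 probe set. Myh7, Tnnt1 and Actc1 had 2 probe sets each and the other 4 genes had 1. The RNA came from cultures of murine neural crest, set up from dorsal neural tubes that were cut along the midline. The piece from one side of an embryo went into medium with 1e-06 M retinoic acid (RA), a derivative of vitamin A, dissolved in ethanol, and the piece from the opposite side was the control. There were 3, 3, 4 and 3 arrays of RA explants at 6, 12, 24 and 48 h, and 3, 3, 4 and 4 arrays of control explants. Explants of the 6 h groups, RA and control, had first been kept overnight on fibronectin in medium with horse serum. The labels give no genotype, strain or embryonic age and do not say how many embryos one array stands for, so p-values here measure the spread between these arrays.

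Striated muscle contracts through the sarcomere, in which thick filaments of myosin pull on thin filaments of actin, and troponin on the thin filament makes the pull depend on calcium. Myosin heavy chains, light chains, troponins and actins each come in several versions, and slow, embryonic and cardiac versions are known to be made early in developing heart and skeletal muscle. Neural crest, which leaves the dorsal neural tube, is best known for giving neurons, glia, pigment cells and parts of the skeleton of the head.

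All values are log2 of the deposited array intensity, and differences are log2 differences with their standard error (SE) from 1 limma fit over the 8 groups. A difference was called at a Benjamini-Hochberg adjusted p below 0.05 over all 12422 probe sets. Medians of the 27 arrays lay between 6.52 and 6.65 log2 and 25th percentiles between 4.92 and 5.18 log2. The RA-degrading enzyme gene Cyp26a1 was at 5.63 log2 or above on every RA array and at 4.92 log2 or below on every control array. Array 3 of the 48 h controls, which its title names a control and its description an RA sample, lay with the controls. Of 10 neural crest markers 9 were measured, and 7 of them lay above the 25th percentile of all 27 arrays. Foxd3 and Ednrb did not. The names _f_at, _s_at and _i_at mark probe sets for which the array's maker could not choose a full set of unique probes, so signal shared with related genes is possible for Myh7, Tnnt1 (161361_s_at) and Actc1, and it was not tested. Scanner records put the arrays of 6 h and of 48 h on days of their own, while 12 h and 24 h arrays shared days. Time and scan day therefore cannot be told apart for 48 h against 6 h, 12 h against 6 h or 48 h against 24 h. The chip lots of the 6 h arrays were used at no other time. Neither these lots nor the overnight step described for the 6 h groups can be told apart from time.

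Transcripts of 5 of the 7 sarcomere genes were called higher at 48 h than at 6 h in both arms. In RA explants 6 of 10 probe sets, of 5 genes, were called higher at 48 h than at 6 h, where 5.51% of all probe sets were. In control explants 7 of 10 probe sets, of the same 5 genes Myh3, Myh7, Tnnt1, Tnnt2 and Tnnc1, were called higher, where 4.23% of all probe sets were. None of the 10 was called lower in RA explants (6.23% of all probe sets were) or in control explants (5.29%). All 48 h arrays lay above all 6 h arrays for 7 of 10 in RA explants (15.4% of all probe sets) and for 7 of 10 in control explants (8.6% of all). The median difference between 48 h and 6 h over the 10 was 1.28 log2 in RA explants, beside 0.05 log2 over all probe sets. In control explants the median was 1.61 log2 over the 10 and 0.07 log2 over all probe sets. The members were chosen with earlier results of these data known. Shares and medians over all probe sets are therefore given for scale and do not test the members as a set. The moderated F-test of limma for any change over the 4 times called 6 of 10 in RA explants (15.2% of all probe sets) and 7 of 10 in control explants (12.9% of all). Myl7 and both probe sets of Actc1 were called by none of these tests. Markers of neurons and of neural tube epithelium summed lower at 48 h than at 6 h. The 7 neuron markers summed to between 1394 and 1879 in RA explants of 48 h and between 2724 and 2986 in those of 6 h, and to between 1660 and 2714 in control explants of 48 h and between 2997 and 3294 in those of 6 h. The 7 markers of neural tube epithelium summed to between 2427 and 3469 in RA explants of 48 h and between 3692 and 4249 in those of 6 h. In control explants they summed to between 2802 and 3676 at 48 h and between 3775 and 4480 at 6 h. Their members did not all go that way. Sox2 averaged 7.03 log2 at 48 h and 10.18 log2 at 6 h in RA explants, and 8.01 and 9.99 log2 in control explants. Nes went the other way, with 10.94 and 10.10 log2 in RA explants and 10.73 and 10.41 log2 in control explants. The part of such shifts in the sarcomere values was not tested. In bulk RNA, fewer cells of a type and less RNA per cell cannot be told apart.

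**Figure D1:**
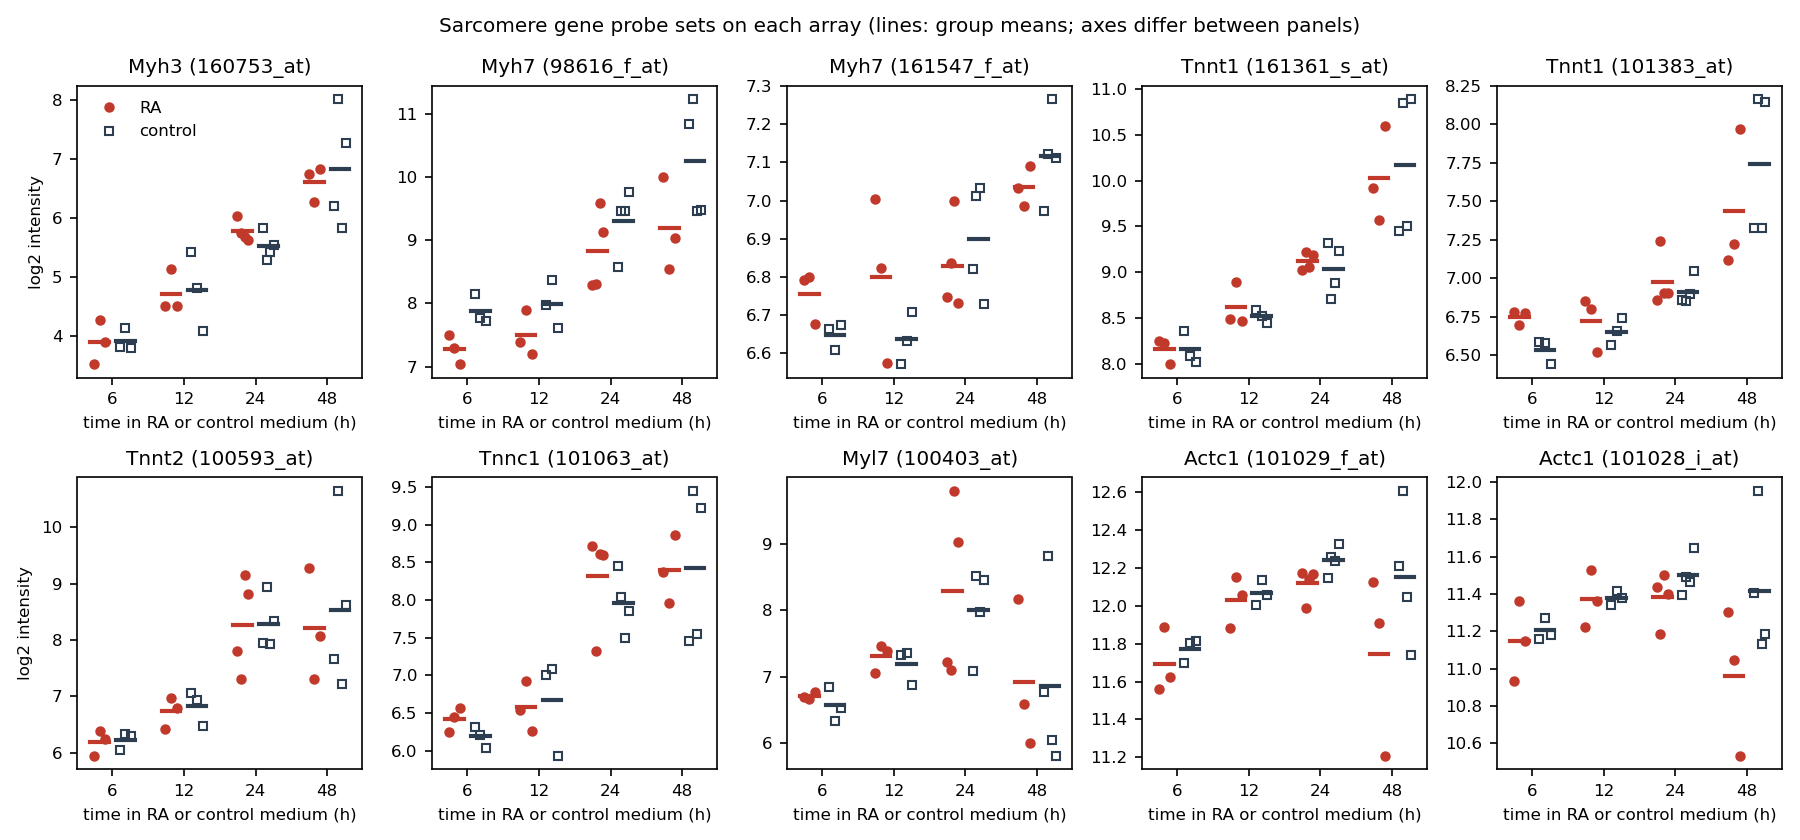
Log2 intensity of the 10 probe sets (vertical axes, which differ between panels) on each of 27 arrays, by hours in RA or control medium. Filled circles are RA arrays, open squares control arrays and lines group means. Myh3, Myh7 (98616_f_at), Tnnt1, Tnnt2 and Tnnc1 have higher group means at 48 h than at 6 h in both arms, whereas Myl7 has its highest group means at 24 h.

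Among the myosin heavy chains, Myh3, the embryonic isoform of skeletal muscle, had the largest difference of the 10 probe sets in both arms. In RA explants Myh3 (160753_at) stood at log2 values of 3.53, 4.28 and 3.90 after 6 h, 4.52, 5.14 and 4.51 after 12 h, 6.04, 5.74, 5.69 and 5.63 after 24 h, and 6.74, 6.27 and 6.84 after 48 h. In control explants it stood at log2 values of 3.83, 4.15 and 3.80 after 6 h, 5.44, 4.83 and 4.10 after 12 h, 5.83, 5.30, 5.43 and 5.54 after 24 h, and 6.21, 8.01, 5.83 and 7.28 after 48 h. All arrays of 48 h were above all arrays of 6 h, and RA and control arrays overlapped at every time. At 48 h the 4 control arrays spread from 5.83 to 8.01, while the 3 RA arrays lay between 6.27 and 6.84. Its difference between 48 h and 6 h was 2.71 log2 (SE 0.38, 6.55-fold) in RA explants, with a limma adjusted p of 5.004e-05. In control explants it was 2.91 log2 (SE 0.36, 7.51-fold, limma adjusted p = 1.679e-05). At 6 h Myh3 ranked between the percentiles 7.6 and 15.4 of its arrays, where RMA compresses differences between dim probe sets, so these folds may be understated.

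Myh7 encodes the slow myosin heavy chain of slow skeletal muscle and ventricle. Its probe set 98616_f_at stood in RA explants at log2 values of 7.50, 7.29 and 7.04 after 6 h, 7.40, 7.90 and 7.20 after 12 h, 8.29, 8.31, 9.58 and 9.13 after 24 h, and 10.00, 8.54 and 9.03 after 48 h. In control explants it stood at log2 values of 8.14, 7.77 and 7.72 after 6 h, 7.97, 8.36 and 7.61 after 12 h, 8.57, 9.46, 9.46 and 9.76 after 24 h, and 10.84, 11.23, 9.47 and 9.48 after 48 h. The control arrays 1 and 2 of 48 h were the highest, and RA arrays of 6 h lay below all control arrays of 6 h. The difference between 48 h and 6 h was 1.92 log2 (SE 0.43, limma adjusted p = 0.004363) in RA explants and 2.38 log2 (SE 0.40, limma adjusted p = 0.0004992) in control explants. The other Myh7 probe set, 161547_f_at, lay between 6.57 and 7.27 on all 27 arrays. It differed between 48 h and 6 h by 0.28 log2 in RA explants (SE 0.11, limma adjusted p = 0.1013) and by 0.47 log2 in control explants (SE 0.10, limma adjusted p = 0.003991). The 2 probe sets of Myh7 thus disagreed in size, and with group means taken off their values correlated with an r of only 0.03 over 27 arrays. Which of them tracks the Myh7 transcript was not tested.

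The troponin T genes encode the subunit that ties troponin to tropomyosin, Tnnt1 in slow skeletal muscle and Tnnt2 in heart and embryonic skeletal muscle. Tnnt1 (161361_s_at) stood in RA explants at log2 values of 8.24, 8.23 and 7.99 after 6 h, 8.49, 8.89 and 8.47 after 12 h, 9.02, 9.22, 9.06 and 9.18 after 24 h, and 9.92, 9.57 and 10.60 after 48 h. In control explants Tnnt1 stood at log2 values of 8.36, 8.09 and 8.02 after 6 h, 8.58, 8.52 and 8.45 after 12 h, 9.32, 8.71, 8.88 and 9.23 after 24 h, and 9.45, 10.85, 9.50 and 10.89 after 48 h. Every array of 48 h was above every array of the other 3 times, in both arms, and RA and control arrays overlapped at each time. Its difference between 48 h and 6 h was 1.87 log2 (SE 0.30, limma adjusted p = 0.000185) in RA explants and 2.01 log2 (SE 0.28, limma adjusted p = 7.028e-05) in control explants. The second Tnnt1 probe set, 101383_at, had smaller differences of 0.69 log2 (SE 0.20, limma adjusted p = 0.02908) in RA explants and 1.20 log2 (SE 0.19, limma adjusted p = 0.000258) in control explants. Leaving out 48 h RA 3 brought the RA value of 101383_at to 0.42 log2 (limma adjusted p = 0.2235), and without any 1 RA array of 6 h it was not called either (limma adjusted p = 0.07318 to 0.08518).

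Tnnt2 (100593_at) stood in RA explants at log2 values of 5.94, 6.38 and 6.24 after 6 h, 6.42, 6.97 and 6.80 after 12 h, 7.81, 7.31, 9.16 and 8.82 after 24 h, and 9.27, 7.30 and 8.07 after 48 h. In control explants Tnnt2 stood at log2 values of 6.04, 6.34 and 6.30 after 6 h, 7.05, 6.94 and 6.47 after 12 h, 7.94, 8.95, 7.92 and 8.33 after 24 h, and 7.67, 10.65, 7.21 and 8.62 after 48 h. The 24 h and 48 h arrays were all above the 6 h and 12 h arrays and overlapped each other, and control 2 of 48 h was far above the other 3. Its difference between 48 h and 6 h was 2.03 log2 (SE 0.60, limma adjusted p = 0.02723) in RA explants and 2.31 log2 (SE 0.56, limma adjusted p = 0.009742) in control explants. Fitted on the compared groups alone, neither was called (limma adjusted p = 0.05124 in RA and 0.1274 in control explants). Without 48 h RA 1 the RA difference was 1.50 log2 and was no longer called (limma adjusted p = 0.1496). The RA call was also lost without 48 h RA 3 or any 1 RA array of 6 h (limma adjusted p = 0.05343 to 0.103).

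Tnnc1 encodes the calcium-binding troponin C of slow skeletal muscle and heart. In RA explants Tnnc1 (101063_at) stood at log2 values of 6.25, 6.45 and 6.57 after 6 h, 6.55, 6.92 and 6.27 after 12 h, 8.72, 7.33, 8.61 and 8.60 after 24 h, and 8.37, 7.96 and 8.86 after 48 h. In control explants Tnnc1 stood at log2 values of 6.32, 6.21 and 6.04 after 6 h, 7.01, 7.08 and 5.93 after 12 h, 8.45, 8.03, 7.49 and 7.86 after 24 h, and 7.46, 9.45, 7.54 and 9.22 after 48 h. All 24 h and 48 h arrays were above all 6 h and 12 h arrays of both arms. Its difference between 48 h and 6 h was 1.97 log2 (SE 0.44, limma adjusted p = 0.004174) in RA explants and 2.23 log2 (SE 0.41, limma adjusted p = 0.001109) in control explants, the control call being lost in a fit of the compared groups alone (limma adjusted p = 0.05116).

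Ranked by group mean, the 8 groups had a 6 h group lowest and a 48 h group highest for Myh3, Myh7 (98616_f_at), Tnnt1, Tnnt2 and Tnnc1, and neighbours in that order mostly overlapped. For Myh3 the means ran from 3.90 (6 h RA) to 6.83 (48 h control), and 2 of 7 neighbouring pairs of groups did not overlap, 12 h RA above 6 h control and 48 h RA above 24 h RA. Tnnt1 (161361_s_at) ran from 8.15 (6 h RA) to 10.17 (48 h control), with gaps between 6 h control and 12 h control and between 24 h RA and 48 h RA. Tnnt2 ran from 6.19 (6 h RA) to 8.54 (48 h control), with gaps above 6 h control and above 12 h control. Tnnc1 ran from 6.19 (6 h control) to 8.42 (48 h control), with 1 gap, above 12 h control. Myh7 (98616_f_at) ran from 7.27 (6 h RA) to 10.26 (48 h control) and Myl7 from 6.57 (6 h control) to 8.28 (24 h RA), and all neighbouring groups of these 2 overlapped.

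**Figure D2:**
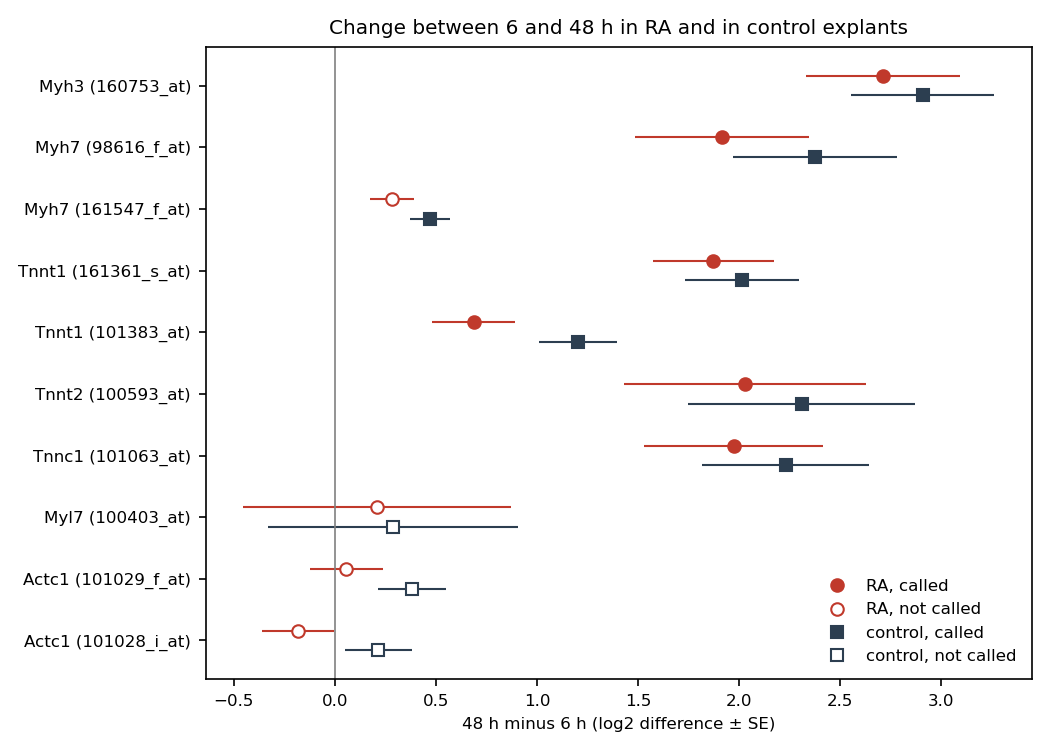
Difference between 48 h and 6 h (horizontal axis, log2, with SE as bars) for each probe set, with RA above control. Filled symbols passed an adjusted p below 0.05 and open ones did not, and the RA and control intervals of each probe set lie near each other.

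The difference was then split into 3 steps. Between 6 and 12 h none of the 10 was called, in RA explants (9.64% of all probe sets were called either way) or in control explants (5.43%). Differences were positive for 9 of 10 in each arm. Their median was 0.28 log2 in RA and 0.33 log2 in control explants, beside -0.015 and -0.006 log2 over all probe sets. Myh3 differed most, by 0.82 log2 in RA explants (SE 0.38, limma adjusted p = 0.1906) and 0.86 log2 in control explants (SE 0.38, limma adjusted p = 0.2316). Between 12 and 24 h again none was called, where 0.0161% of all probe sets were in RA explants and 0.0564% in control explants. The largest differences of that step were those of Tnnc1, 1.74 log2 in RA explants (SE 0.41, limma adjusted p = 0.3013) and Tnnt2, 1.46 log2 in control explants (SE 0.56, limma adjusted p = 0.6275). Arrays of 12 h and 24 h shared 2 scan days, and with scan day as a block limma called Myh7 (98616_f_at, 1.39 log2, adjusted p = 0.002128) and Tnnc1 (1.89 log2, adjusted p = 0.008702) in RA explants. With that block it called Myh7 (98616_f_at, 1.39 log2, adjusted p = 0.001743), Tnnt2 (1.51 log2, adjusted p = 0.04415) and Tnnc1 (1.44 log2, adjusted p = 0.02395) in control explants. Scan day 3 held, in each arm, only arrays 1 and 2 of 12 h and arrays 3 and 4 of 24 h. Within scan day 3 alone the RA differences of this step were 1.71 log2 for Myh7 (98616_f_at), 2.29 for Tnnt2, 1.87 for Tnnc1 and 2.15 for Myl7, with limma adjusted p of 0.03948, 0.005838, 0.005432 and 0.02802. The same step within scan day 3 in control explants gave 1.44, 1.13, 0.63 and 0.87 log2 for these 4, and none was called. RA 3 and RA 4 of 24 h were the highest arrays for Myl7. Over all arrays its RA difference in this step was 0.98 log2 (SE 0.62, limma adjusted p = 0.9925).

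Between 24 and 48 h none was called in RA explants, where 0.483% of all probe sets were. In control explants both Tnnt1 probe sets were called higher at 48 h, by 1.14 log2 (161361_s_at, SE 0.26, limma adjusted p = 0.02962) and 0.83 log2 (101383_at, SE 0.18, limma adjusted p = 0.02045), where 0.459% of all probe sets were called higher. Myh3 differed by 1.31 log2 in that step (SE 0.33, limma adjusted p = 0.05232). The Tnnt1 calls, though not the sizes, depended on single arrays. With 1 array left out the differences were 0.90 to 1.38 log2 by 161361_s_at and 0.69 to 0.97 log2 by 101383_at. The call of 161361_s_at was lost without any 1 of the 4 controls of 24 h and without control 2 or 4 of 48 h, with adjusted p up to 0.1092, and that of 101383_at without control 1 or 3 of 24 h or control 2 or 4 of 48 h, with adjusted p up to 0.07802. With chip lot as a block, which sets the 1 lot shared by 24 h and 48 h arrays against itself, the values were 0.57 and 0.34 log2 (limma adjusted p = 0.07036 and 0.1045).

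Myl7, the light chain of atrial myosin, which early heart cells also make, had another time course. In RA explants Myl7 (100403_at) stood at log2 values of 6.70, 6.66 and 6.77 after 6 h, 7.05, 7.47 and 7.39 after 12 h, 7.22, 7.10, 9.79 and 9.03 after 24 h, and 8.17, 6.59 and 5.99 after 48 h. In control explants Myl7 stood at log2 values of 6.84, 6.34 and 6.53 after 6 h, 7.32, 7.36 and 6.88 after 12 h, 7.08, 8.51, 7.97 and 8.46 after 24 h, and 6.76, 8.81, 6.05 and 5.81 after 48 h. Its highest arrays were RA 3 and RA 4 of 24 h, and within 48 h it ran from 5.99 to 8.17 in RA explants and from 5.81 to 8.81 in control explants. Differences between 48 h and 6 h were 0.21 log2 in RA explants (SE 0.66, limma adjusted p = 0.9052) and 0.29 log2 in control explants (SE 0.62, limma adjusted p = 0.8075). Between 24 and 48 h the differences were -1.37 log2 in RA explants (SE 0.62, limma adjusted p = 0.4002) and -1.15 log2 in control explants (SE 0.57, limma adjusted p = 0.4463), and neither was called.

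Markers of heart were set beside Myl7. Of the 6 heart markers 5 were measured and 3 lay above the 25th percentile of all arrays, while Myh6, the atrial myosin heavy chain, did so on 7 of 27 arrays and Myl2, the ventricular light chain, on 6. Those 3 had close group means, from 7.13 to 7.48 log2 for Gata4, 7.81 to 8.06 log2 for Nppa and 6.01 to 6.40 log2 for Nkx2-5 over the 8 groups. Myh6 (101071_at) stood at 3.82, 3.82, 9.18 and 7.62 on the 24 h RA arrays and at 4.38, 8.62, 6.02 and 6.08 on the 24 h control arrays. At 48 h it stood at 5.90, 3.70 and 4.06 in RA explants and at 4.16, 8.11, 3.66 and 3.84 in control explants. No array of 6 h or 12 h exceeded 4.06. The intensities of the 5 markers summed to between 508.7 and 1190 on the 24 h RA arrays and between 512 and 953.1 on the 24 h control arrays. At 48 h they summed to between 546.9 and 604.4 in RA explants and between 527.9 and 789.5 in control explants, and at 6 h and 12 h to between 454.9 and 540.7. The 7 arrays with the highest Myh6 were also the 7 arrays with the highest Myl7. The part of heart cells in the Myl7 values was not tested.

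**Figure D3:**
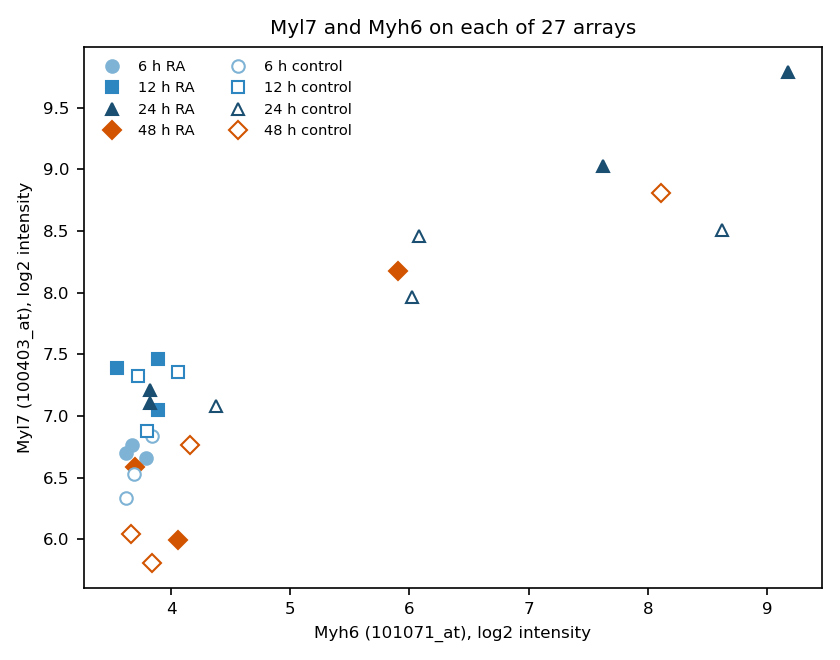
Log2 intensity of Myl7 (vertical axis) against Myh6 (horizontal axis) on each of 27 arrays, with filled symbols for RA and open ones for control. The 7 arrays with the highest Myh6, from 5.90 to 9.18 and all of 24 h or 48 h, are also the 7 with the highest Myl7.

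Actc1, the actin of heart that embryonic skeletal muscle also uses, was bright on every array. Probe set 101029_f_at stood in RA explants at log2 values of 11.56, 11.89 and 11.62 after 6 h, 11.88, 12.16 and 12.06 after 12 h, 12.18, 11.99, 12.14 and 12.17 after 24 h, and 12.13, 11.91 and 11.21 after 48 h. In control explants it stood at log2 values of 11.70, 11.81 and 11.81 after 6 h, 12.00, 12.14 and 12.06 after 12 h, 12.15, 12.26, 12.24 and 12.33 after 24 h, and 12.21, 12.61, 12.05 and 11.74 after 48 h. It ranked at or above the percentile 97.9 of every array, and RA 3 of 48 h was the lowest of the 27. Its differences between 48 h and 6 h were 0.06 log2 in RA explants (SE 0.18, limma adjusted p = 0.9061) and 0.38 log2 in control explants (SE 0.17, limma adjusted p = 0.1675). Probe set 101028_i_at lay between 10.53 and 11.95, with differences of -0.18 log2 in RA explants (SE 0.18) and 0.21 log2 in control explants (SE 0.17), neither called. Actins are close copies of each other, and the smooth muscle markers, led by Acta2 and Tagln, summed to between 9077 and 12590 on the 48 h RA arrays and between 9874 and 13300 on the 48 h control arrays. Signal from other actins in the Actc1 probe sets was not tested.

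Promoter sequences were set beside these courses, from RefSeq on build GRCm38.p6, as the 250 bases before a transcript start. All 7 genes matched, with 9 windows in all since Myh7 and Tnnt2 had 2 starts. The CArG box, the site of serum response factor that many muscle genes carry, was found on either strand in 1.5% of 32851 mouse windows and, of the members, in those of Actc1 and Myl7. These 2 are shown because their calls stood apart from those of the other 5 genes. The capitals mark the CArG box, at -47 to -38 from the start in Actc1 (chr2:114052876-114053125, minus strand) and at -61 to -52 in Myl7 (chr11:5898783-5899032, minus strand).
Actc1: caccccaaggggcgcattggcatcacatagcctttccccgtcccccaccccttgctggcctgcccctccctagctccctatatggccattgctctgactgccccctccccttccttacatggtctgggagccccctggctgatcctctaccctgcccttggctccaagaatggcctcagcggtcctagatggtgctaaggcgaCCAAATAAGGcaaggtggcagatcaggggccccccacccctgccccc
Myl7: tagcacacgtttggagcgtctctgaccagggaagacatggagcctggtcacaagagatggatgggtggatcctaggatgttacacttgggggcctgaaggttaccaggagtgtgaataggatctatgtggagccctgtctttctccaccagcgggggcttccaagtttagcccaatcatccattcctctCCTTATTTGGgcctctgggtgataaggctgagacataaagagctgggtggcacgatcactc

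A TATA box, searched as the letters TATAAA, stood on either strand in 12.4% of all windows and in those of Myh3 and Tnnt1. These 2 genes are shown because theirs were the smallest adjusted p for 48 h against 6 h in both arms. The capitals mark TATAAA, at -29 to -24 in Myh3 (chr11:67078050-67078299, plus strand) and at -30 to -25 in Tnnt1 (chr7:4515976-4516225, minus strand).
Myh3: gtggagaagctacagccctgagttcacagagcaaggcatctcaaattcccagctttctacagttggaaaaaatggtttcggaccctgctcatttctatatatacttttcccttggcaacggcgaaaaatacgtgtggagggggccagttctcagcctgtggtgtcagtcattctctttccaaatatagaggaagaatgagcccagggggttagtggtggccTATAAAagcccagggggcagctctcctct
Tnnt1: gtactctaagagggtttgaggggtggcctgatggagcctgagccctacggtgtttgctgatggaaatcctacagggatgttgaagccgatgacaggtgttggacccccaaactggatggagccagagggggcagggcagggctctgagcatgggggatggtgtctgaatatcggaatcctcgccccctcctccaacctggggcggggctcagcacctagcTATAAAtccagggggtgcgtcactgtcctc

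Of the other motifs searched on both strands, the E box CANNTG, bound by the myogenic factors, was in windows of 6 of 7 genes and in 66.2% of all windows. The M-CAT motif CATTCC was in windows of Myh7, Myl7, Tnnc1 and Tnnt2 and in 12.6% of all. The GATA motif, read as GATA preceded by A or T and followed by A or G, was in windows of Myl7 and Tnnt2 and in 26.5% of all. The MEF2 site (1.7% of all windows) and the retinoid receptor motif AGGTCA (14.0% of all) were in none of the members' windows, which says only that these letters are not in these 250 bases. No motif overlapped the CArG box or the TATAAA shown. Matches describe the letters and were not tested as sites.

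The comparison of RA with control asked whether the exposure itself moved these transcripts. In the main fit, which did not pair arrays, none of the 10 probe sets was called at 6, 12, 24 or 48 h. The share called either way over all probe sets was 0.0242%, 0.0242%, 0.153% and 0.274% at these times. With an unadjusted p below 0.05, limma had 0, 0, 0 and 3 of the 10, beside 4.29%, 2.49%, 1.84% and 3.42% of all probe sets. The 3 at 48 h were Myh7 (98616_f_at, -1.07 log2, SE 0.40) and both probe sets of Actc1 (-0.41 log2, SE 0.17, and -0.46 log2, SE 0.17). With 1 array left out they ran from -1.472 to -0.741 log2 for Myh7. For Actc1 they ran from -0.594 to -0.135 log2 (101029_f_at) and from -0.627 to -0.242 log2 (101028_i_at). The median difference over the 10 was -0.01, -0.02, 0.03 and -0.26 log2 at 6, 12, 24 and 48 h, and over all probe sets it was within 0.03 log2 of 0. At 6 h RA and control arrays did not overlap for 3 of the 10. Myh7 (161547_f_at) and Tnnt1 (101383_at) lay higher in RA (7.28% of all probe sets did), and Myh7 (98616_f_at) lay lower (8.29% of all). At 12, 24 and 48 h RA and control arrays overlapped for all 10, where 4.49%, 1.39% and 1.06% of all probe sets lay wholly higher in RA and 4.5%, 0.845% and 0.765% wholly lower. A fit with the record pairs described below as a block did call Myh7 (98616_f_at) at 48 h (-0.74 log2, limma adjusted p = 0.03663).

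Among the genes called higher at 48 h than at 6 h, Myh7 (98616_f_at) had the widest RA difference, -1.07 log2 at 48 h (SE 0.40). For Myh3 the RA differences were -0.02, -0.06, 0.26 and -0.22 log2 at 6, 12, 24 and 48 h, with SE from 0.33 to 0.38. Tnnt1 (161361_s_at) had -0.002, 0.10, 0.09 and -0.14 log2 with SE from 0.26 to 0.30, and by 101383_at 0.21, 0.07, 0.06 and -0.30 log2 with SE from 0.18 to 0.21. Tnnt2 had -0.04, -0.09, -0.01 and -0.32 log2 with SE from 0.52 to 0.60. Tnnc1 had 0.23, -0.10, 0.35 and -0.02 log2 with SE from 0.38 to 0.44. Myl7, with SE from 0.57 to 0.66, differed by 0.14, 0.12, 0.28 and 0.06 log2. Whether the RA effect at 48 h differed from that at 6 h was tested directly, and limma called none of the 10 (0.0161% of all probe sets). The 10 estimates of that difference ran from -0.52 to -0.08 log2.

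Myh7 (98616_f_at) had a negative RA difference at each of the 4 times, -0.60, -0.49, -0.48 and -1.07 log2 with SE from 0.37 to 0.43. Record pairs, 13 in number, were formed from an RA and a control array of equal time whose scan records followed each other on 1 day. RA was the higher array for this probe set in 1 of 13 pairs, with pair differences from -1.15 to 0.13 log2. Over all probe sets 3.42% were lower with RA in at least 11 of 13 pairs and 0.29% in all 13. The share for at least 12 was not counted. Averaged over the 4 times the difference was -0.66 log2 (SE 0.21), which limma did not call (adjusted p = 0.2687), and none of the 10 was called in that mean, where 0.564% of all probe sets were. Equal replicate numbers could be read as pairs at 6 h and 24 h alone. At 12 h the record pairs join the same arrays as the numbers do, and they rest there on the scan records. Replicate number as a block also paired arrays by number at 48 h, where the difference moved from -1.07 to -1.32 log2. The mean with that block was -0.72 log2 and was called (limma adjusted p = 0.03346). It was -0.58 log2 with scan day as a block (limma adjusted p = 0.001263) or record pair as a block (limma adjusted p = 0.0003259). At 48 h alone the record pair block gave -0.74 log2, called with a limma adjusted p of 0.03663. Control 2 of 48 h, the highest array for this probe set at 11.23 log2, had no record partner and did not enter that value. Within scan day 1 it was -0.56 log2 at 6 h, and within scan day 3 it was -0.52 log2 at 12 h and -0.26 log2 at 24 h, with 2 arrays of each arm and none called. The other Myh7 probe set had a mean difference of 0.03 log2 (SE 0.05), with RA higher in 7 of 13 pairs.

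For the other probe sets RA was the higher array in 10 of 13 pairs for Myh3 and for Myl7, where 6.48% of all probe sets were higher with RA in at least 10 of 13. It was higher in 8 for Tnnc1 and Tnnt1 (101383_at), and in 7 for Tnnt2 and Tnnt1 (161361_s_at). Actc1 was higher with RA in 3 of 13 pairs by 101029_f_at, where 8.14% of all probe sets were lower with RA in at least 10 of 13. By 101028_i_at Actc1 was higher with RA in 4 of 13 pairs. The mean differences of Actc1 were -0.16 log2 by each probe set (SE 0.09 and 0.08, limma adjusted p = 0.986 and 0.9802). Pair differences spread most for Myl7, from -1.40 to 1.83 log2, and for Tnnt2, from -1.64 to 1.60 log2.

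**Figure D4:**
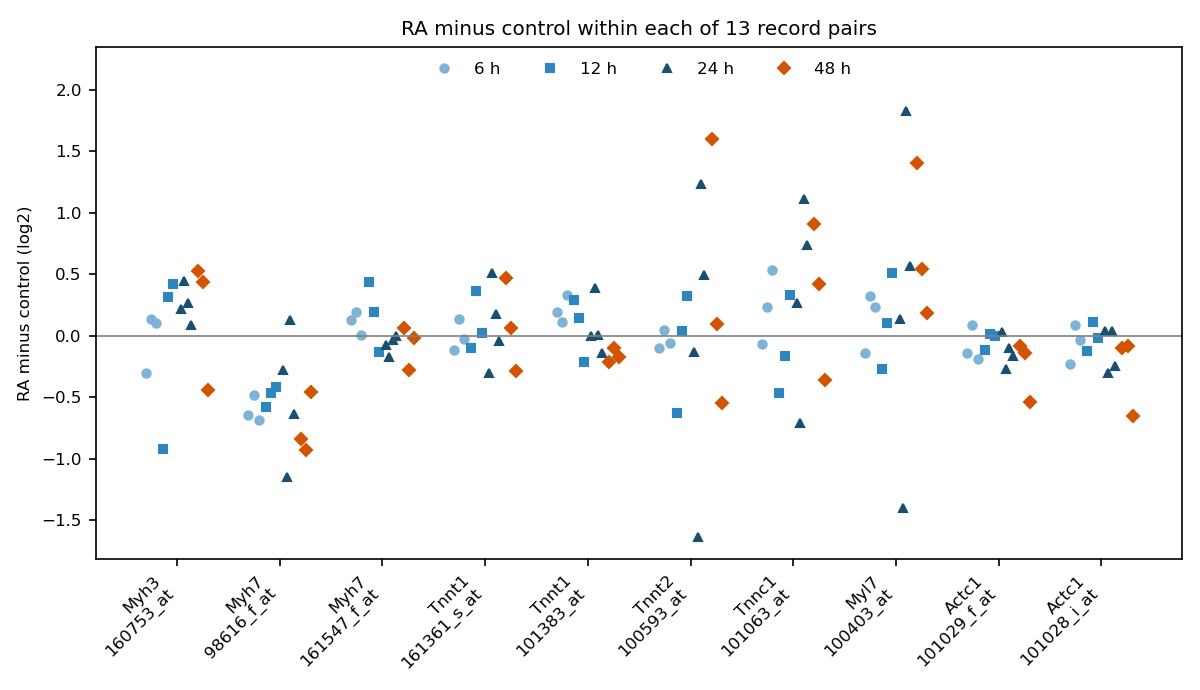
RA minus control (vertical axis, log2) within each of 13 record pairs for the 10 probe sets, with symbols by time. For Myh7 (98616_f_at) 12 of 13 pairs lie below 0, while Tnnt2 and Myl7 scatter widely on both sides.

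Shares of variance differed between the members. Time, which overlaps with scan day, carried 84.8% of the variance of Myh3, 82.1% of Tnnt1 (161361_s_at), 75.8% of Tnnc1, 69.9% of Myh7 (98616_f_at) and 65.3% of Tnnt2. RA within a time carried between 0.4% and 1.2% for Myh3, Tnnt1 (161361_s_at), Tnnt2, Tnnc1 and Myl7. It carried 4.4% for Tnnt1 (101383_at), 8.1% for Myh7 (161547_f_at), 10.3% for Myh7 (98616_f_at), 15.8% for Actc1 (101029_f_at) and 23.2% for Actc1 (101028_i_at), whose time share was 19.3%. For Myl7 time carried 38.3% and the record pair 47.8%, and for Actc1 (101029_f_at) time carried 34.9% and the record pair 43.9%. Over all probe sets time carried 40%, RA within a time 8.7%, the record pair 41% and the rest 10.4%.

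With the group means taken off, the members fell into 2 sets that moved from array to array, as a description over 27 arrays that share culture and scan. Myl7 went with Myh7 (98616_f_at, r = 0.87), Tnnt2 (r = 0.82) and Actc1 (101028_i_at, r = 0.75). Myh3 went with Tnnc1 (r = 0.80) and Tnnt1 (161361_s_at, r = 0.75). Myl7 and Tnnt1 (161361_s_at) had an r of 0.06, and Myh7 (98616_f_at) and Tnnt1 (161361_s_at) one of 0.10. Tnnt2 went with both, at an r of 0.65 with Myh3 and 0.69 with Tnnc1. Among the 48 h controls, arrays 2 and 4 were the highest for Myh3, Tnnt1 and Tnnc1, and arrays 1 and 2 for Myh7 (98616_f_at), Myl7 and Actc1. Markers of surface ectoderm, led by the keratin genes Krt8 and Krt18, also set arrays of 48 h apart. Their summed intensity was 4656, 1957 and 1996 on RA arrays 1, 2 and 3, and 4072, 4214, 1274 and 1341 on control arrays 1, 2, 3 and 4. The part of surface ectoderm cells in the sarcomere values was not tested. The probe sets of one gene had an r of 0.93 for Actc1 and 0.85 for Tnnt1.

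**Figure D5:**
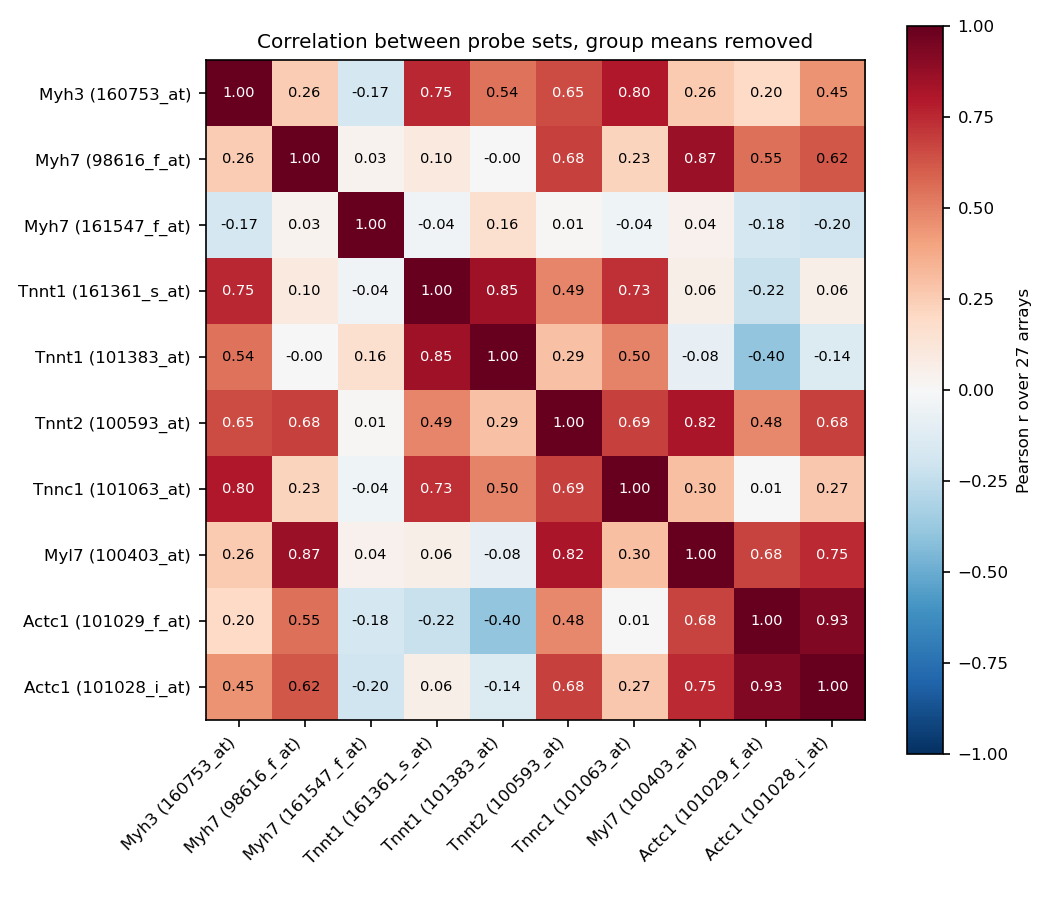
Pearson r over 27 arrays between the 10 probe sets after group means were taken off, from blue for negative to red for positive. Myl7, Myh7 (98616_f_at) and Tnnt2 share high values, as do Myh3, Tnnt1 and Tnnc1, and Myh7 (161547_f_at) goes with none.

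Over all 27 arrays, with time left in, the probe sets most like a member were in part other sarcomere genes. For Myh3 these were Tnni1, the slow troponin I (r = 0.95), Myl1, a fast light chain (r = 0.93), and Hspb8, a small heat shock protein (r = 0.91). For Tnnt1 (161361_s_at) they were Myl1 (r = 0.96), Mybph, a myosin-binding protein (r = 0.92), and Tnni1 (r = 0.91). Tnnt2 was most like Myl4, the light chain of atrium and embryonic muscle (160487_at, r = 0.95), Tnni1 (r = 0.92) and Atp2a2, a calcium pump (r = 0.90). Tnnc1 was most like Tnni1 (r = 0.93), the p53 ligase gene Mdm2 (r = 0.90) and Myl4 (r = 0.90). Myl7 was most like Myh6 (r = 0.89) and both probe sets of Sh3bgr (r = 0.82 each). Myh7 (98616_f_at) was most like genes outside the sarcomere, the receptor gene Igf2r (r = 0.92), the growth factor gene Tgfb3 (r = 0.89) and the laminin gene Lama2 (r = 0.88). Actc1 (101029_f_at) was most like Vps41 (r = 0.90), Tuba1a (r = 0.88) and Cnn2 (r = 0.88). These values describe arrays that share time, culture and scan.

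Other sarcomere and Z-disc genes, a list of 40 of which 31 were measured, were called higher at 48 h than at 6 h for 6 in RA explants and for 10 in control explants, and for none lower. Over all probe sets 5.51% were called higher and 6.23% lower in RA explants, and 4.23% higher and 5.29% lower in control explants, and the calls in every list stand against these shares. Calls in a list depended on the fit, and over the alternatives they numbered 2 to 7 in RA explants and 3 to 11 in control explants here. Their median difference was 0.19 log2 in RA explants (0.05 over all probe sets) and 0.35 log2 in control explants (0.07 over all). Tnni1 was higher at 48 h by 1.77 log2 in RA explants (SE 0.31, limma adjusted p = 0.0004634) and by 1.93 log2 in control explants (SE 0.29, limma adjusted p = 0.0001431). Myl1 differed by 1.02 log2 in RA explants (SE 0.23) and 1.45 log2 in control explants (SE 0.21), and Myom1, of the M-band, by 0.95 (SE 0.25) and 1.40 log2 (SE 0.24). Mybph and Tnnc2, the fast troponin C, were called in both arms too, and Des, the intermediate filament desmin, in control explants alone (0.63 log2, SE 0.20), without a test of the arms against each other. No gene of this list was called for RA against control at any time.

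Genes of excitation, calcium handling and energy supply, a list of 28 with 25 measured, were called higher at 48 h for 6 in RA explants and for 5 in control explants, and lower for none. The median difference was 0.25 log2 in RA explants and 0.27 log2 in control explants. Atp2a1, the calcium pump of fast muscle, was called in both arms (0.48 log2 in RA explants, SE 0.15, and 0.46 log2 in control explants, SE 0.14). Ryr1, the calcium release channel, had 0.55 log2 in RA explants (SE 0.14, called) and 0.31 log2 in control explants (SE 0.13, not called). Ryr1 was dim, with group means between 4.3 and 4.85 log2, and it exceeded the 25th percentile on only 1 array. Its call therefore rests on values in the range that RMA compresses. Chrnb1, a subunit of the muscle acetylcholine receptor, had 0.68 log2 (SE 0.17, called) and 0.34 log2 (SE 0.16, not called). Pgam2, a glycolytic enzyme of muscle, and Casq1, the calcium store protein, were called in control explants (0.65 log2, SE 0.17, and 0.46 log2, SE 0.14), with 0.34 and 0.21 log2 in RA explants. Art1, an ADP-ribosyltransferase of muscle, was called in RA explants (0.44 log2, SE 0.12) and had 0.27 log2 in control explants. None of this list was called for RA against control.

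Skeletal muscle regulators, a list of 24 with 20 measured, had 3 called higher and 2 lower at 48 h in RA explants, and 3 higher and 1 lower in control explants. Myog, the factor of muscle differentiation, was higher by 0.51 log2 in RA explants (SE 0.09, limma adjusted p = 0.0004471) and by 0.65 log2 in control explants (SE 0.08, limma adjusted p = 2.718e-05). Pax3, a factor of muscle progenitors and of neural crest, was lower by similar amounts (-0.87 log2, SE 0.20, and -0.86 log2, SE 0.19). Myf5, an early myogenic factor, was lower in RA explants (-1.73 log2, SE 0.43, limma adjusted p = 0.009646) and had -0.79 log2 in control explants (SE 0.41, not called). Mef2d and Cdh15, a factor and a cadherin of muscle, were called higher in control explants (0.75 and 0.56 log2), with 0.44 and 0.28 log2 in RA explants. Meox1, a homeobox gene of the somites, was the 1 gene of the list called for RA against control, at 24 h (0.90 log2, SE 0.16, limma adjusted p = 0.01333) and at 48 h (1.24 log2, SE 0.18, limma adjusted p = 0.0005035). The 24 h call was lost without control 1, control 4 or RA 3 of 24 h, and both calls in fits of the compared groups alone.

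Markers of somite mesoderm and skeletal muscle had a course of their own. All 6 were measured and 4 lay above the 25th percentile of all arrays. Their summed intensity lay between 819.9 and 916 in RA explants of 48 h and between 655.9 and 686.2 in those of 6 h. In control explants it lay between 723.2 and 796 at 48 h and between 590.9 and 625.4 at 6 h. The sum was already at 871.6 to 908.1 in RA explants and 706.6 to 817.7 in control explants at 12 h. No sarcomere probe set was called there against 6 h, though 9 of 10 had positive differences in each arm. At 24 h the sum was at 778 to 866.2 in RA explants and 707 to 780.3 in control explants. Its members went different ways. Meox1, which was called for RA against control, averaged 7.71 log2 in RA explants of 48 h and 6.56 log2 in those of 6 h, with 6.48 log2 in control explants of 48 h and 6.20 log2 in those of 6 h. Tcf15, a factor of somites, averaged 6.22 log2 in RA explants of 48 h and 6.69 log2 in those of 6 h, with 6.35 log2 in control explants of 48 h and 6.59 log2 in those of 6 h. Myod1, a defining marker, had group means between 6.60 and 6.96 log2 in the 8 groups. The part of somite or muscle cells in the sarcomere values was not tested.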

How the data were processed

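Total RNA of explant cultures was measured on 27 Affymetrix MG_U74Av2 arrays, 1 sample per array. The authors normalised the arrays with RMA Express 0.2, per the labels' description, and used GeneSpring later; whether that step changed values is not stated. The deposited values were linear intensities from 3.92 to 17003, so log2 was taken once. RMA gives no detection calls. Of 12488 probe sets 66 controls were left out and 12422 were tested. The platform's annotation gave 1 gene for 10833, several for 396 and none for 1193, and 0 of the several-gene probe sets named a member. No 2 arrays held identical values.

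Arrays were grouped by title. The array titled 48 h control 3 is described as RA treated and was kept as control, with the other grouping as an alternative. Scanner records gave 9 scan days, 7 chip lots and 13 record pairs, with 48 h control 2 unpaired. As a check of pairing, r between RA and control arrays that share a replicate number, after removal of group means, was 0.447 to 0.47 at 6 h and 0.229 to 0.622 at 24 h, so numbers counted as pairs there, against -0.052 to 0.257 at 12 h and -0.308 to 0.67 at 48 h, so they did not. For the 13 record pairs the same r had a median of 0.451 and ran from -0.052 to 0.73. At 12 h the record pairs joined the same arrays as the numbers, with r of -0.052, 0.126 and 0.257. Other combinations of 12 h had r from -0.23 to 0.112, so the record pairs of 12 h rest on the scan records. For the 33 other combinations of an RA and a control array of equal time its median was -0.203. With group means removed in such small groups, positive r in pairs pushes the r of other combinations below 0. The contrast between these medians is therefore partly built in. The main fit did not use the record pairs.

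Differences were fitted two-sided with limma 3.58.1 in R 4.3.3, as 1 model over 8 groups with 19 residual degrees of freedom and no block, and the script was tested on simulated data. Adjusted p are Benjamini-Hochberg values over 12422 probe sets, called below 0.05. Alternatives were blocks, single scan days, median centring, cyclic loess, an offset of 50, a filter on the dimmest 30%, array weights, trend with robust moderation, the compared groups alone and each array left out. Chip lot and scan day as a random block were added after seeing the data. Named were all member probe sets, up to 6 called genes per list (2 where none was called) and 3 probe sets most like each member. Of the 3 known RA targets looked up, Cyp26a1 alone is given. The brightest probe set stood for a listed gene. Members and lists were chosen with earlier results of these data known. Promoters were read from RefSeq tables of GRCm38.p6. Plots used matplotlib 3.10.9.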

Additional observations from a re-analysis of the deposited data

Results flagged for a closer look

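Single arrays far from the rest of their group were looked for in the 3 groups of 4 arrays, over 10 probe sets, which made 30 groups. The array RA 2 of 24 h was alone in 2 of them. For Tnnc1 it was the lowest at 7.33 log2, and the gap to its neighbour was 0.917 of the group's range. For Tnnt1 (101383_at) it was the highest at 7.24 log2, with a gap of 0.887 of the range. The bound for 4 arrays is 0.829, and chance alone passes it in about 1 of 20 groups. On the same array Tnnt2 was at 7.31 log2, Myl7 at 7.10 and Tnnt1 (161361_s_at) at 9.22.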

How the results depend on the processing

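No call turned its direction under any alternative, and 310 of 10534 single differences, called neither way in both fits, changed sign. The 10 members were called in the same number for RA against control at 6, 12 and 24 h (0) under all alternatives run. At 48 h the record pair block called 1 in place of 0. For the mean over times, blocks for replicate number, scan day, record pair, chip lot and random scan day each called 1 in place of 0, Myh7 (98616_f_at) in each. For 48 h against 6 h the groups compared alone gave 4 in place of 7 in control explants, with Myh7 (161547_f_at), Tnnt2 and Tnnc1 lost, and 4 in place of 6 in RA explants, with Tnnt1 (101383_at, limma adjusted p = 0.1367) and Tnnt2 (limma adjusted p = 0.05124) lost. The offset of 50 lost Tnnt2 in RA explants (limma adjusted p = 0.0865). For 12 h against 6 h they gave 2 in RA and 2 in control explants in place of 0. For 24 h against 12 h in RA explants the scan-day block called 2, scan day 3 alone 4, the chip-lot block 1 and random scan day 2, in place of 0. In control explants the scan-day block and array weights called 3, and the chip-lot block and random scan day 2. For 48 h against 24 h array weights called 3 in place of 0 in RA explants. In control explants an offset of 50 and array weights called 1 in place of 2, and the groups compared alone, the chip-lot block and random scan day 0. With 1 array left out, the calls ranged from 4 to 6 for 48 h against 6 h in RA explants, from 7 to 8 in control explants, and from 0 to 3 for 48 h against 24 h in control explants, and were 0 in every other comparison. The replicate block moved the mean of Myh7 (98616_f_at) to -0.72 log2 (limma adjusted p = 0.03346) and changed no other count of called members. That block moved the 48 h difference of this probe set to -1.32 log2, although numbers counted as pairs at 6 h and 24 h alone. Of 1175 counts of called genes in the other gene lists 97 moved by over 1.5 times. For 48 h against 6 h these counts, higher and lower calls together, ranged in RA explants from 1 to 9 for excitation, calcium handling and energy, 3 to 6 for skeletal muscle regulators, 1 to 5 for heart regulators and 0 to 2 for smooth muscle. In control explants they ranged from 0 to 6, 2 to 5, 0 to 3 and 0 to 2 for the same 4 lists. With 48 h control 3 grouped as RA, Myh7 (161547_f_at) was also called for 48 h against 6 h in RA explants (0.34 log2, limma adjusted p = 0.02369). Under that grouping Myh3 was also called for 48 h against 24 h in control explants (1.65 log2, limma adjusted p = 0.01086). Scan-day blocks could not be fitted for 48 h against 6 h. The number of arrays limits the precision, dim values such as those of Myh3 at 6 h are compressed by RMA, and probe sets named with _f_at, _s_at or _i_at may share signal with related genes.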

Other observations

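Heart regulators and natriuretic peptides, a list of 19 with 13 measured, had 1 gene called higher and 2 lower at 48 h against 6 h in RA explants, and 1 higher and 1 lower in control explants. Over all probe sets 5.51% were called higher and 6.23% lower in RA explants, and 4.23% higher and 5.29% lower in control explants. The median difference was 0.05 log2 in RA explants and 0.15 log2 in control explants, beside 0.05 and 0.07 log2 over all probe sets. Smyd1, a methyltransferase of heart and skeletal muscle that is needed for sarcomere assembly, was higher by 0.95 log2 in RA explants (SE 0.19, limma adjusted p = 0.001917) and by 0.99 log2 in control explants (SE 0.18, limma adjusted p = 0.0009433). Hopx, a small homeodomain protein of heart, was lower, with -0.60 log2 in RA explants (SE 0.16, limma adjusted p = 0.01291) and -0.51 log2 in control explants (SE 0.15, limma adjusted p = 0.02766). Nppb, the B-type natriuretic peptide, had -0.89 log2 in RA explants (SE 0.28, limma adjusted p = 0.04309) and -0.76 log2 in control explants (SE 0.27, limma adjusted p = 0.0746). None of this list was called for RA against control.

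Smooth muscle contractile genes, a list of 15 with 12 measured, had none called at 48 h against 6 h in RA explants and 2 called higher in control explants. The median difference was 0.26 log2 in RA explants and 0.16 log2 in control explants. Actg2, the actin of visceral smooth muscle, had 0.74 log2 in RA explants (SE 0.41, limma adjusted p = 0.3097) and 1.47 log2 in control explants (SE 0.39, limma adjusted p = 0.01654). The other call was Des, which the sarcomere list holds too. None of this list was called for RA against control, where its median was -0.10, -0.05, -0.07 and -0.12 log2 at 6, 12, 24 and 48 h.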
